A study of Drosophila melanogaster with 3 samples.

Results

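Chromatin immunoprecipitation with sequencing of tagged Deadpan in fly embryos gave 5164 enriched regions (IDR-thresholded peaks). Of these, 1011 (19.6%) lay at pairs of protein-coding genes that start close together on opposite strands. A peak was counted there when its summit was within 500 bp of start sites of at least 2 coding genes of opposite strands in the Ensembl annotation of genome release 6 (dm6), on the arms X, 2L, 2R, 3L, 3R and 4. Among the thresholded peaks, no signal value entered this choice. Another 1720 peaks had coding starts of 1 strand only within 500 bp (one-directional promoter peaks), and 2433 had none. The study holds 1 group with 3 biological replicates: whole embryos of 0 to 24 hours, both sexes mixed, of the strain dpn-MiMIC-GFP. In this strain an extra eGFP exon lies in an intron of dpn, so that Deadpan carries eGFP wherever the endogenous gene is active, and the chromatin was precipitated through GFP. All tissues and stages were mixed, and no library of another genotype or treatment is among the samples. From these samples, signal that does not depend on the tag cannot be told apart from binding of Deadpan. The comparisons are between sets of regions within the same libraries. The authors' peak calling used a control alignment. Each replicate is represented by a list of 30000 peaks and background regions without read counts, so the depth is unknown, and regions were compared only by their rank within a list, with rank 1 for the highest signal value.

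Deadpan belongs to the Hes family of transcriptional repressors, which bind DNA as dimers through a basic helix-loop-helix domain and recruit the co-repressor Groucho. It is best known in neuroblasts, the neural stem cells of the fly, and as a counting element in sex determination. A divergent promoter is a stretch of DNA from which a pair of genes is transcribed outward in opposite directions. In the compact fly genome such promoters are common at broadly expressed genes, and many hold the DNA replication-related element bound by DREF (core TATCGATA) or the core promoter element called Motif 1. Hes proteins are known to prefer words of the E-box class, such as CACGTG, its relative CACGCG, and the N-box, such as CACAAG.

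The stretches between the starts of the strongest such pairs are shown because the sequence there belongs to both genes at the same time. They are the 8 strongest peaks on X, 2L, 3L, 3R and 4 whose head-to-head starts lay 60 to 300 bp apart with no annotated exon between them, taken from release 6, plus strand, 5′ to 3′, from the base after the minus-strand start to the base before the plus-strand start. Capitals mark 3 words on either strand. The first is the DREF-type word TATCGA, whose reverse complement is TCGATA, and the full element TATCGATA holds it on both strands. The second is the Motif 1 word ACACTG with its reverse complement CAGTGT, and the third is the palindrome CACGTG.
Chro/Ssl1: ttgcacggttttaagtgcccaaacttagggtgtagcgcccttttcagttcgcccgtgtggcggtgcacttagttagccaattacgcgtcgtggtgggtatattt
Tcs5/CHMP2B: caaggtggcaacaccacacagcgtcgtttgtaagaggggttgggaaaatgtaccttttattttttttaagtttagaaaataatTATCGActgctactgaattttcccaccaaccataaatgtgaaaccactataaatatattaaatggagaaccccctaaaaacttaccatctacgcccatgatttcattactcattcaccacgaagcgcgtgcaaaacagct
Atat/Shc: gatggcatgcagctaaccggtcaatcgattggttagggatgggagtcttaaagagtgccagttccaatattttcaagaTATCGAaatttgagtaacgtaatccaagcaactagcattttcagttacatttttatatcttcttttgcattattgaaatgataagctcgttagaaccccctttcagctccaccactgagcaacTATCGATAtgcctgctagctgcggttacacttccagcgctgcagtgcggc
Art3/mRpS10: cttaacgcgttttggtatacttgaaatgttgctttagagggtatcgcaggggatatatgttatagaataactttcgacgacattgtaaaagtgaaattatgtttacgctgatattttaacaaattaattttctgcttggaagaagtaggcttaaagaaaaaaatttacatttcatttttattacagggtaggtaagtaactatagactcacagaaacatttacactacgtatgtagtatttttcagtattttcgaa
CG7601/CIA30: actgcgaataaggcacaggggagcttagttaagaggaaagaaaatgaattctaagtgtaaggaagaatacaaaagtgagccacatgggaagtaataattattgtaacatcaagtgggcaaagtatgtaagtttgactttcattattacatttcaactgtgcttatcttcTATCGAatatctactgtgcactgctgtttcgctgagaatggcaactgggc
RpS27/Nup37: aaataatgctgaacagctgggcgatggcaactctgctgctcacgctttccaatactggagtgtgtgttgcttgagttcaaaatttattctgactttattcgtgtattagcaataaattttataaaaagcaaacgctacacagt
Coq4/CG32176: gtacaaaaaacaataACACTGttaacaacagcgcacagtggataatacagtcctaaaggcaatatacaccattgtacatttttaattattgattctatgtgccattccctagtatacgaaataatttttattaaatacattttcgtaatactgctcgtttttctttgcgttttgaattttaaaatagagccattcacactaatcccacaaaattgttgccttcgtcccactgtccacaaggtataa
Mkk4/SLIRP2: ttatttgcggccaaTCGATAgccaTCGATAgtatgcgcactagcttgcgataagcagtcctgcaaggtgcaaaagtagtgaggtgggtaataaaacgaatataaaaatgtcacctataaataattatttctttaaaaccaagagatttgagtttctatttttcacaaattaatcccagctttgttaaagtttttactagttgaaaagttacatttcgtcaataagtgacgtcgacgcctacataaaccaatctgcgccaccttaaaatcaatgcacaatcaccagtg
The coordinates are chr3L:22878985-22879088 for Chro/Ssl1, chr3L:5139396-5139618 for Tcs5/CHMP2B, chr3L:9426759-9427009 for Atat/Shc, chr3R:15229409-15229664 for Art3/mRpS10, chr3R:29736746-29736964 for CG7601/CIA30, chr3R:25247515-25247657 for RpS27/Nup37, chr3L:17433622-17433867 for Coq4/CG32176 and chr3R:8650797-8651083 for Mkk4/SLIRP2. The summit was base 106 of the Tcs5/CHMP2B run, base 124 of Atat/Shc, base 93 of Art3/mRpS10, base 107 of CG7601/CIA30, base 20 of RpS27/Nup37, base 147 of Coq4/CG32176 and base 145 of Mkk4/SLIRP2. At Chro/Ssl1 it lay outside the run, 99 bp inside Chro. In Tcs5/CHMP2B the word TATCGA stood within 50 bp of the summit, while in Mkk4/SLIRP2 both copies stood at the Mkk4 end. Chro/Ssl1, Art3/mRpS10 and RpS27/Nup37 held none of the 3 words between the starts.

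CACGTG, the palindromic word of the E-box class, was rare between paired starts. Among the 351 peaks eligible for such stretches by the rule above (arms, distance and no exon), 162 had TATCGA, 70 had ACACTG and 10 had CACGTG between the starts. No such count is given for pairs without a peak, and a palindrome is 1 word on both strands where the others are 2. Within 50 bp of the midpoint, CACGTG was at 1.54% of occupied and 0.426% of unoccupied head-to-head pairs. There TATCGA (17.2% and 12.8%) and ACACTG (9.37% and 5.11%) were also more frequent at occupied pairs. The unoccupied pairs include nearly all of the widest ones, where the midpoint is far from both starts, and these shares were not split by spacing. The 3 strongest of the 10 are shown in the same way.
CG1105/CG1965: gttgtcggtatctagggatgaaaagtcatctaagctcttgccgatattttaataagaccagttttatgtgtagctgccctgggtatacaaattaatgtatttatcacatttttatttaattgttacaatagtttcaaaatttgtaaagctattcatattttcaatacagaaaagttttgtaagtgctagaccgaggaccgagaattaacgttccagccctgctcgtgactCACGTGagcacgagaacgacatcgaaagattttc
gb/CG5815: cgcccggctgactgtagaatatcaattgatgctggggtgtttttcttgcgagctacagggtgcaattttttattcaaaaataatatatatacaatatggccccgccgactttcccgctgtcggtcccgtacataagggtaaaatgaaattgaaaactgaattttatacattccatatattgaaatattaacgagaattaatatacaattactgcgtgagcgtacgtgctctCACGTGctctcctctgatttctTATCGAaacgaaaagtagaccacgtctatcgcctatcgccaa
CG3434/CG44838: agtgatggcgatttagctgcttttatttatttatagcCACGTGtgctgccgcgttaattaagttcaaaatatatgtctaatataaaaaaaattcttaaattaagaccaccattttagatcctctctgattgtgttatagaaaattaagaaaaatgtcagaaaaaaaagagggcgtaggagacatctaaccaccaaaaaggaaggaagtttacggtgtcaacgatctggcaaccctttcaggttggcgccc
They lie at chr3R:7067137-7067400, chr3R:27112271-27112565 and chr3L:9460800-9461049. Their peaks had rank 216, 564 and 1337 in the IDR-thresholded list. The summit was base 157 of the CG1105/CG1965 run, base 148 of gb/CG5815 and base 163 of CG3434/CG44838, and in each of these 3 stretches CACGTG lay more than 50 bp from it.

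The strongest peak at a gene pair was that of Chro, which encodes a chromodomain protein of polytene interbands and the mitotic spindle, and Ssl1, a subunit of the general transcription factor TFIIH. It had rank 6 among all 5164 peaks and rank 7, 7 and 7 in replicates 1, 2 and 3. Next came Tcs5/CHMP2B at rank 12, with ranks 21, 11 and 11 in the replicates. CHMP2B belongs to the ESCRT-III machinery that remodels membranes, and Tcs5 to the complex that modifies tRNA. Atat/Shc followed at rank 13, with ranks 14, 16 and 12. Atat acetylates alpha-tubulin and Shc is an adaptor of receptor tyrosine kinases. Fbw5/CG9147 had rank 20 (22, 21 and 22 in the replicates), and Pdrg1/Pal1 rank 22 (15, 29 and 25). Mitochondrial ribosomal protein genes took part in the next positions, with mRpS23/CenG1A at rank 24 (24, 22 and 24) and Art3/mRpS10 at rank 26 (27, 33 and 27). The uncharacterized pairs CG8372/CG8360 and CG5757/CG5098 had ranks 32 and 36. CG7601/CIA30, with a gene for assembly of respiratory complex I, had rank 39, and mRpL23/CG9004 rank 44. RpS27/Nup37, a cytosolic ribosomal protein gene beside a nuclear pore gene, had rank 51 (36, 52 and 66 in the replicates). The remaining pairs of the strongest 20 were tank/CG12194 (48), Coq4/CG32176 (55), Pex11ab/CG8320 (58), Mkk4/SLIRP2 (59), CG5611/Mtl (62), Lon/PIG-F (63), Fur1/Vps33B (65) and Bdp1/CG6565 (67). Coq4 acts in coenzyme Q synthesis, Pex11ab in peroxisome division, Mkk4 in the JNK cascade, Lon in mitochondrial proteolysis and Bdp1 in transcription by RNA polymerase III. The 20 pairs thus came from unlike functions. All 20 had head-to-head starts, and the lowest position that any of them took in a replicate was rank 88, for Fur1/Vps33B in replicate 2. High ranks in the replicates are partly set by the choice, since the list was made from them. Only 3 of the 20, the first 3 named, had TATCGA within 50 bp of the summit, and none had ACACTG there.

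**Figure D1:**
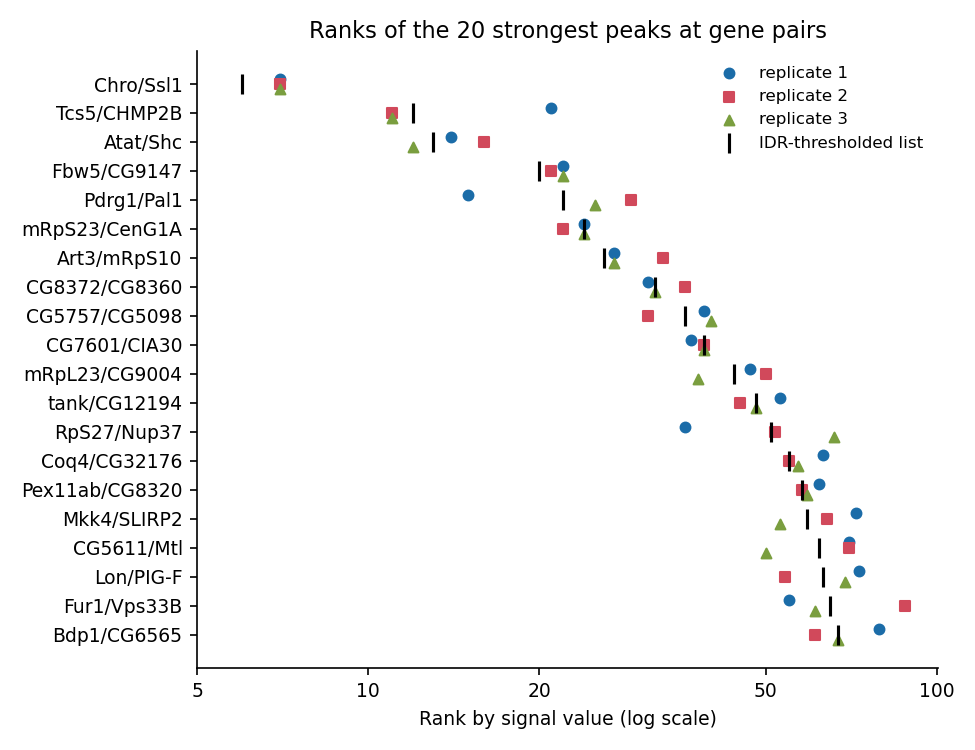
Rank by signal value (log scale, 1 is highest) of the 20 strongest peaks at gene pairs, in each of the 3 replicate lists (coloured symbols) and in the IDR-thresholded list (black bars). The ranks in the replicates stay between 7 and 88, and the position of a pair in 1 replicate is close to its position in the others. The 20 were chosen as the strongest of a list made from these replicates, so this is a description and not a test.

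Of the 1011 peaks, 994 (98.3%) lay at starts that faced away from each other (head to head), and 17 at starts that faced each other so that the transcripts cross. The gene bodies were apart at 893 of the head-to-head peaks and overlapped at 101. The strongest crossing case was CG4741/Adck1 at rank 105 (100, 124 and 106 in the replicates). The peaks belonged to 930 nearest pairs and had 1919 genes within 500 bp, 2 genes at 958 peaks and 3 or more at 53. The extreme, with 10 genes, was a peak at rank 274 on 3R within the mod(mdg4) locus, whose many trans-spliced precursors are annotated as separate genes on both strands. Its entries are therefore not independent promoters, and the counts without them are given with the processing alternatives. Only 15 of the 1011 peaks also had a start of a non-coding gene within 500 bp. The starts were a median of 279 bp apart (quartiles 184.5 and 379, at most 717) at the head-to-head peaks, and 301 bp over the 2615 head-to-head pairs of the annotation with starts within 1000 bp. At the limit of the rule, the last peaks inside were Abp1/Tgi with the farther start 499 bp from the summit (rank 1687), and CG43102/pasi1 and Drsl6/kst with 498 bp (ranks 3136 and 3767). Just outside were CG15343/CG1636 with 503 bp (rank 3695), and step/CG1416 and dgt3/Prosalpha3 with 504 bp (ranks 2816 and 4514).

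The peaks at gene pairs were mostly found again in each replicate. Among as many top entries of each replicate as the IDR-thresholded list holds, a summit within 150 bp was present for 88.0%, 87.7% and 89.7% of them in replicates 1, 2 and 3. For one-directional promoter peaks this was 86.8%, 84.1% and 85.4%, and for peaks near no coding start it was 82.2%, 83.1% and 86.4%. The difference between peaks at pairs and one-directional peaks was 3.05 ± 1.61 percentage points (SD, n = 3, range 1.23 to 4.31) and had the same sign in 3 of 3 replicates. The two-sided exact sign-flip permutation test over 3 replicates gave p = 0.25, which is the smallest it can give. Since the list was made from these replicates, recovery is a description of it, and neither the shared sign nor this p-value tests it. In all 3 replicates 744 peaks at pairs were found (73.6%), against 66.8% of the one-directional peaks, and 193 were found in 2, 66 in 1 and 8 in none. Within rank classes the shares of both kinds of promoter were close. Among peaks ranked 1 to 1000, 99.6% of those at pairs and 99.7% of the one-directional ones were in all 3 replicates. At ranks 1001 to 2000 the shares were 97.9% and 98.7%, and at ranks 2001 to 3000 they were 87.1% and 90.4%. At ranks 3001 to 4000 they were 50% and 46.1%, and at ranks 4001 to 5164 they were 7.93% and 6.10%. The 8 peaks found in none were all weak. The highest of them, at CG31955/CG2818, had rank 4451 and stood at 5236, 5255 and 5589 in the replicates, just under the limit. MED7/Cap-H2, between a Mediator and a condensin gene, had rank 5120 and stood at 23387, 5911 and 26434. It was the second summit of that pair, whose other summit, 200 bp away, had rank 999 and stood at 1050, 1243 and 862. In the full lists, 973 peaks (96.2%) were present in all 3 replicates and none was missing from all of them.

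Most summits sat between the starts rather than inside either gene. Of the 994 head-to-head peaks, 813 (81.8%) had the summit between the nearest starts of both genes, and for their matched summits in the replicates the share was 81.9 ± 0.612% (SD, n = 3). Of the positions that the rule allowed for these pairs, 43.7% lay between the starts. The share grew with the distance between the starts. It was 17.5% of 40 peaks with starts 1 to 49 bp apart, 53.8% of 106 at 50 to 99 bp and 69.2% of 117 at 100 to 199 bp. It was 88.1% of 302 at 200 to 299 bp, 92.0% of 224 at 300 to 399 bp and 95.6% of 205 at 400 bp or more. The allowed positions between the starts grew as well, with 34.2% at 200 to 299 bp and 88.9% at 400 bp or more, so the excess over that share was small at the widest pairs. Seen from the nearer gene, the summit lay a median of 57 bp upstream of the start (quartiles 16 and 103), against 91 bp (16 and 209) at one-directional peaks, where a single start or set of starts was available. A summit between head-to-head starts is upstream of both. At one-directional peaks 1355 of 1720 summits (78.8%) were upstream of the nearest start, so a summit upstream was not particular to pairs. The summit was nearer to the minus-strand gene at 469 peaks, nearer to the plus-strand gene at 521 and equally far at 4.

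**Figure D2:**
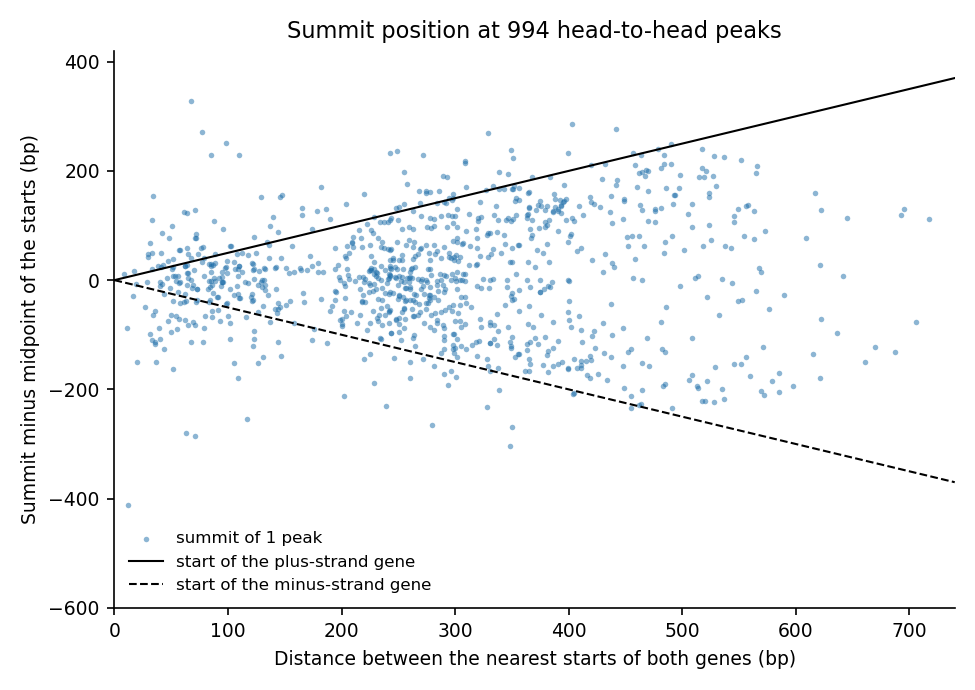
Position of each of the 994 head-to-head summits relative to the midpoint of the starts (vertical axis, bp, positive toward the plus-strand gene) against the distance between the starts (horizontal axis, bp). The lines mark the starts of both genes, and 813 points lie between them.

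Where the lean of a summit toward 1 of the genes was large, the matched summits of the replicates mostly shared it. For the 744 peaks found in all replicates the 3 summits spanned a median of 39 bp. Of the 735 head-to-head ones, 556 (75.6%) had all 3 summits on the same side of the midpoint. With an IDR summit at least 50 bp off the midpoint this was 412 of 431 (95.6%), and with at least 100 bp it was 246 of 250 (98.4%). Matches were sought only within 150 bp of the IDR summit, so a large lean left little room for a match across the midpoint. The rise of these shares with the lean is thus partly set by the matching and is no test of stability. A lean below 50 bp was within the scatter of the replicates for many peaks.

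At 80 of the 930 pairs (8.60%) the list held more than 1 summit, 79 with 2 and Elp6/Dic1 with 3. The summits of such a pair were 199 to 292 bp apart, with a median of 203 bp. The smallest distance between any neighbouring summits in the whole list was also 199 bp, so no closer summits were listed at all. At CG5611/Mtl, whose Mtl encodes a Rac-like GTPase, the stronger summit (rank 62) lay 141 bp upstream of CG5611 and the weaker (rank 2852) 3 bp upstream of Mtl. At Cp190/CG4338 the summits were of more similar strength, with rank 297 at 50 bp upstream of Cp190 and rank 585 at 29 bp upstream of CG4338. Cp190 encodes an insulator cofactor. RpL34b/CG8132 had ranks 127 and 1446, and Herp/r2d2 ranks 223 and 1186. In these 4 pairs each gene had a summit near its own start.

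Gene pairs held a summit more often than promoters that stand alone. Of the 2720 opposite-strand coding pairs of the annotation with starts within 1000 bp, 1005 held an IDR-thresholded summit near both genes, which is 36.9%. Of the 8804 coding genes in no such pair, 1208 had a summit within 500 bp of a start, which is 13.7%. With the top entries of each replicate, 36.0%, 35.1% and 36.3% of the pairs were occupied, against 14.5%, 13.2% and 13.5% of the genes in no pair. The difference was 22.1 ± 0.654 percentage points (SD, n = 3), positive in 3 of 3 replicates (two-sided exact sign-flip permutation p = 0.25, the smallest possible). Counted by gene, 42.9% of the 5141 genes in pairs had a summit near a start. Genes of a pair can share a summit, so the same question was also put per length of DNA. Positions within 500 bp of coding starts of both strands covered 1674757 bp, 1.25% of the arms, and held 60.4 IDR summits per 100 kb. Positions near starts of 1 strand only covered 13658319 bp and held 12.6 per 100 kb, and the rest of the arms held 2.05. Positions of the first kind lie near starts of at least 2 genes, so the densities do not compare equal numbers of promoters. They are also only the overlap of the windows of both genes. The outer parts of those windows count as positions near starts of 1 strand. The densities thus also differ in how far the positions lie from starts, and this was not adjusted for. In the replicates the densities were 59.2 ± 0.783 and 12.7 ± 0.536 summits per 100 kb (SD, n = 3), a ratio of 4.66 ± 0.190 (exact sign-flip p = 0.25 for the difference). Of the 1715 pairs without a thresholded summit, 736 (42.9%) had an entry of the pooled list below the threshold, and 979 had none.

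Occupancy peaked at pairs with starts 200 to 399 bp apart. It was 43.9% of 417 pairs at 1 to 99 bp, 37.1% of 350 at 100 to 199 bp, 52.9% of 531 at 200 to 299 bp and 52.7% of 393 at 300 to 399 bp. In the replicates the values at 100 to 199 bp were 39.4%, 35.7% and 37.4%, and at 200 to 299 bp 51.4%, 51.6% and 54.4%, with no overlap between these classes. At 400 to 499 bp it was 37.1%, at 500 to 599 bp 29.6% and at 600 to 699 bp 7.28%. At these distances the stretch within 500 bp of both starts shrinks with the spacing, so the last values are set by the rule. A summit near either gene was present at 41.1% of pairs at 100 to 199 bp, 57.3% at 200 to 299 bp, 57.3% at 300 to 399 bp, 44.0% at 400 to 499 bp and 38.3% at 700 to 1000 bp. The higher values at 200 to 399 bp were thus also seen without that limit. The share of occupied pairs differed between the chromosome arms in these lists. In the replicates 42.7 ± 1.01% of 699 pairs on 3R were occupied (SD, n = 3). It was 36.6 ± 0.109% of 528 pairs on 3L, 34.0 ± 1.87% of 517 on 2L, 31.6 ± 0.992% of 555 on 2R and 31.4 ± 1.55% of 410 on X. The values of 2R and X lay within these SDs of each other. The replicate values and SDs here show how far 3 lists of largely the same peaks agree. They do not give the sampling error of a share of pairs, and no test between spacing classes or arms was made. For genes in no pair the values were 13.4 ± 0.950% on 3R, 12.8 ± 0.915% on 3L, 12.9 ± 0.353% on 2L, 14.0 ± 0.452% on 2R and 15.7 ± 0.615% on X, below the pairs on each of these 5 arms. Chromosome 4 was the exception, with 15.2 ± 5.25% of its pairs and 17.8 ± 4.98% of its genes in no pair. These values overlap within the SDs of the lists, and 11 pairs are too few for a comparison.

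**Figure D3:**
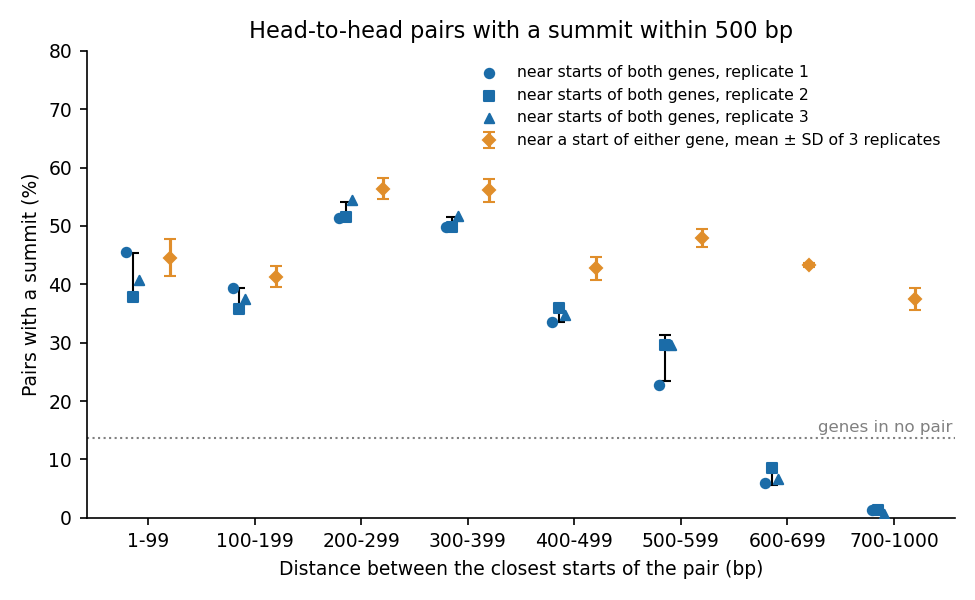
Percent of head-to-head coding pairs with a summit among the top entries of each replicate, by the distance between the closest starts. Blue symbols are the 3 replicates for a summit within 500 bp of both genes (black bars, SD around their mean), orange diamonds the mean ± SD for a summit near either gene, and the dotted line the mean of 13.7% for genes in no pair. Both measures are highest at 200 to 399 bp.

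The share of entries at gene pairs fell steeply with rank in each replicate. Among the 500 top entries 24.4%, 25% and 23.2% were at pairs in replicates 1, 2 and 3, and among entries ranked 501 to 5164 this was 18.7%, 18.3% and 19.0%. It was 8.38 ± 1.23% at ranks 5165 to 10000, 3.52 ± 0.415% at ranks 10001 to 20000 and 2.09 ± 0.112% in the last 10000 entries (SD, n = 3). The top 500 exceeded the last class by 22.1 ± 1.01 percentage points, positive in 3 of 3 replicates, and the means differed 11.6-fold (exact sign-flip p = 0.25, the smallest possible). The share of one-directional entries declined less, with 41.1 ± 1.55% in the top 500 and 15.8 ± 0.794% in the last class. Within the thresholded list the peaks at pairs had a median rank of 2182, against 2561 for one-directional peaks and 2774 for peaks near no coding start. In the replicates the median ranks were 2167 ± 82.9 at pairs and 2548 ± 64.5 at one-directional promoters, a difference of -381 ± 65.5 ranks (SD, n = 3, range -419 to -305, exact sign-flip p = 0.25). This order was not seen in shorter lists. With lists of 2582 top entries, 50% as many, the difference was 23.2 ± 66.3 ranks, within the spread of the replicates and of the other sign (exact p = 0.75). With all 30000 entries of each replicate it was -5951 ranks, and with a limit of 250 bp to the starts -733 ranks, so its size depends on the list and the limit. At the top of the list both kinds were alike, since 121 of the 1011 peaks at pairs (12%) and 203 of the 1720 one-directional peaks (11.8%) were among the strongest 500.

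**Figure D4:**
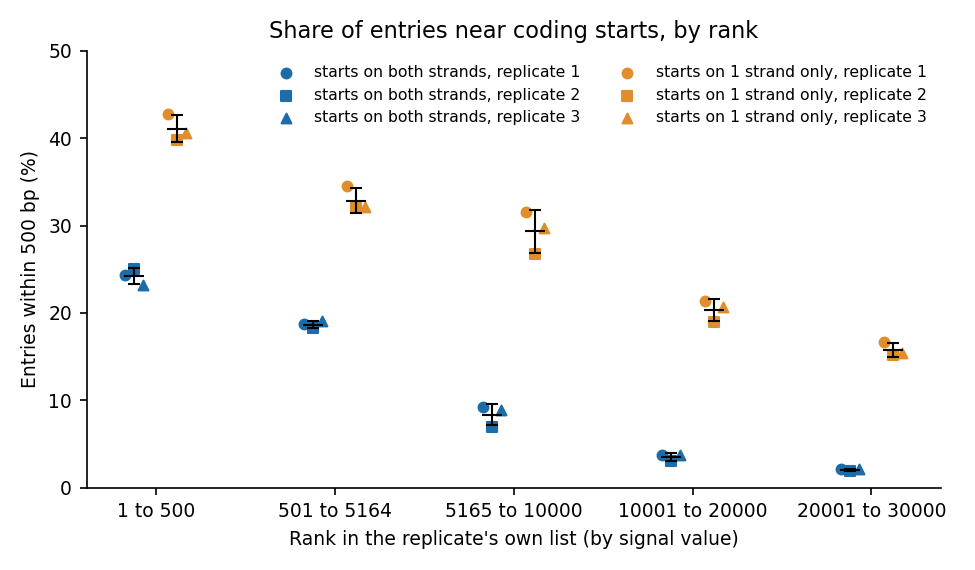
Percent of entries in each replicate list that lie within 500 bp of coding starts on both strands (blue) or on 1 strand only (orange), in 5 rank classes. Symbols are replicates and bars the mean ± SD. The blue values fall to 2.09% in the last class, the orange ones to 15.8%.

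Summits at gene pairs were rich in the core of the DREF element. TATCGA, searched on both strands, was within 50 bp of the summit at 212 of the 1011 peaks (21.0%), in 4.50% of windows of the same length 400 bp away, and at 13.9% of the one-directional summits. Windows of the same length around all 19252 coding start positions held it in 13.8%. These windows are not alike in position. A summit at a pair lies near starts of at least 2 genes, many flank windows lie beyond the starts, and the last windows are centred on a start. In the replicates 20.6 ± 0.892% of summits at pairs held the word, against 4.82 ± 0.228% of their flanks and 13.6 ± 1.81% of one-directional summits (SD, n = 3). The 3 lists hold largely the same peaks on 1 genome, so the SDs of word shares describe how far the lists agree and not the spread of a share over genomes. The differences were 15.7 ± 0.963 and 6.97 ± 1.26 percentage points, each positive in 3 of 3 replicates (two-sided exact sign-flip p = 0.25 for each, the smallest possible). With windows of 100 bp on either side of the summit they were 25.3 and 12.9 percentage points. The full element TATCGATA, which holds TATCGA, was at 7.62% of summits at pairs, 0.890% of their flanks, 4.48% of one-directional summits and 4.48% of all starts. The strongest peaks were the exception. TATCGA was at 10.8% of the 240 peaks at pairs ranked 1 to 1000 and at 23.6%, 23.3%, 24.4% and 25.6% in the 4 following rank classes. One-directional peaks had 8.29% in the first class and 14.7%, 14.1%, 16.5% and 16.2% after it. Peaks at pairs with the word had a median rank of 2579, and those without it 2047.

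**Figure D5:**
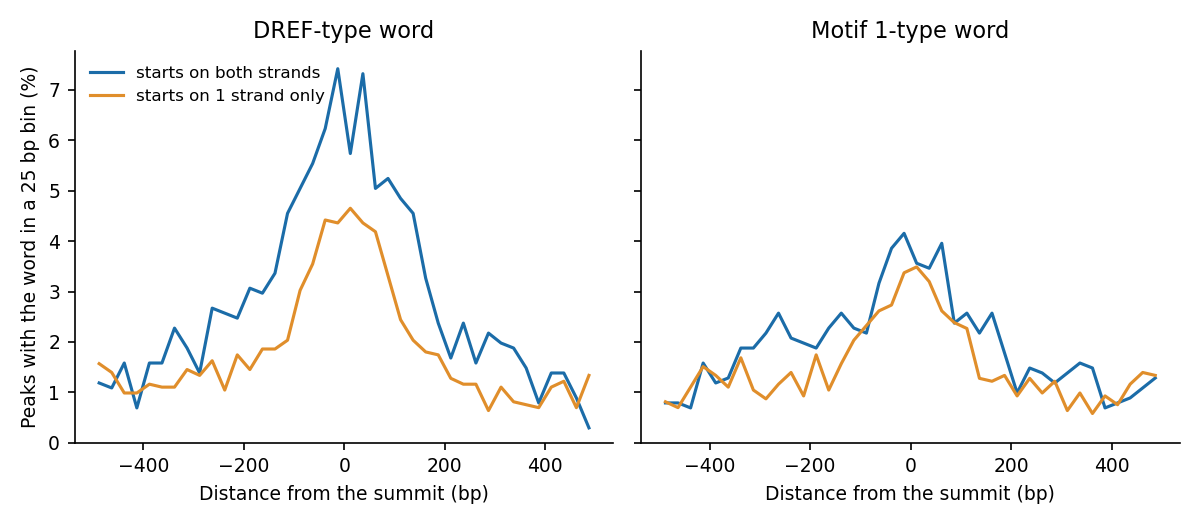
Percent of peaks with TATCGA (left panel) or ACACTG (right panel) on either strand in bins of 25 bp around the summit, for peaks at gene pairs (blue) and one-directional promoter peaks (orange). Both words are most frequent at the summit, and TATCGA is more frequent there at pairs, with 21.0% against 13.9% within 50 bp.

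ACACTG, part of Motif 1, was at 13.3% of summits at pairs, in 3.91% of their flanks, at 11.3% of one-directional summits and at 9.68% of all starts. The longer word GGTCACAC can overlap it within a full Motif 1 and was at 3.76%, 1.09%, 2.97% and 4.68% of the same windows. TATCGA and ACACTG occurred together at 34 peaks at pairs, and 699 (69.1%) had neither. The words known for Hes proteins were no more frequent at the summits than beside them, apart from CACTAG. The palindrome CACGTG was at 10 summits (0.989%), in 1.38% of flanks and at 1.82% of all starts, CACGCG at 1.98%, 3.21% and 3.60%, CACGAG at 1.88%, 2.92% and 2.71%, and CACAAG at 4.06%, 4.10% and 4.07%. CACTAG was at 4.25% of summits, in 2.18% of flanks and at 2.99% of all starts, with 4.10 ± 0.727% and 1.85 ± 0.398% for summits and flanks in the replicates (SD, n = 3). One-directional summits held CACTAG at a like share, 4.01%. GAGAGA, the word bound by the GAGA factor, was scarce at pairs, with 1.55 ± 0.303% of summits in the replicates against 5.21 ± 0.299% of one-directional summits and 4.07% of all starts. The other words searched were CAGCTG (7.32% of summits at pairs, 7.32% of flanks, 8.77% of all starts), TATAAA (15.6%, 6.53%, 15.5%), CACCAG (4.15%, 6.78%, 3.74%) and CAGGTA (2.47%, 2.67%, 2.00%). Base composition moved with these shares, since A and T made up 62.2% of the summit windows at pairs, 52.2% and 52.1% of the left and right flanks, and 60.2% of one-directional summit windows. Its part in the word shares was not tested.

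The words were also counted within 50 bp of the midpoint between the starts, where no summit enters, at the 971 occupied and 1644 unoccupied head-to-head pairs. Of the 14 words, 8 had a higher share at occupied pairs and 6 a lower one. TATCGA was at 167 occupied pairs (17.2%) and 210 unoccupied pairs (12.8%), and TATCGATA at 5.77% and 4.38%. The Motif 1 words went different ways, with ACACTG at 9.37% and 5.11% and GGTCACAC at 2.27% and 3.16%. So did the words known for Hes proteins. CACGTG was at 15 occupied pairs (1.54%) and 7 unoccupied pairs (0.426%), while its relative CACGCG was at 10 (1.03%) and 33 (2.01%). CACGAG was at 1.03% and 0.912%, CACTAG at 2.78% and 2.13%, and CACAAG at 2.16% and 2.62%. GAGAGA was at 14 occupied pairs (1.44%) and 57 unoccupied pairs (3.47%). Of the remaining words, TATAAA was at 23.8% and 22.3%, CAGGTA at 1.75% and 1.58%, CAGCTG at 6.49% and 6.93%, and CACCAG at 2.57% and 2.92%. These are counts on 1 genome, some of them of few pairs, and no test was made. Occupied and unoccupied pairs also differed in spacing, since the rule leaves few wide pairs occupied. Of 151 pairs with starts 600 to 699 bp apart 11 were occupied, and of 308 at 700 to 1000 bp 2 were. At such pairs the midpoint is far from both starts, and the shares were not split by spacing.

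Genes of the ribosome were frequent at the occupied pairs. Of all 5141 genes in opposite-strand pairs, 37.3% lay at one of the 1011 peaks. For cytosolic ribosomal proteins it was 31 of 53 paired genes (58.5%), and for mitochondrial ribosomal proteins 36 of 59 (61.0%). The classes differed in the genes that stood alone. Of cytosolic ribosomal protein genes in no pair 24 of 33 (72.7%) had a summit, but of mitochondrial ones 3 of 16 (18.8%), against the 13.7% of all such genes. The summit also sat differently within the pair. At 27 of 31 head-to-head pairs with 1 cytosolic ribosomal protein gene the strongest summit was nearer to that gene, a median of 49 bp from its start and 209 bp from the partner's (a count, with no test). At 36 such pairs of mitochondrial ribosomal protein genes it was nearer to the listed gene at 14 and to the partner at 22. RpS27/Nup37 (rank 51) had the summit 20 bp upstream of RpS27, and RpL7 at rank 119 had it 28 bp inside the gene, 58 bp from the start of Ripalpha, which encodes a partner of replication protein A. RpL32, with rank 84 (71, 95 and 92 in the replicates), was an exception with the summit 166 bp upstream, nearer to CG7943. The strongest mitochondrial examples were mRpS23, mRpS10 and mRpL23, with ranks 24, 26 and 44, named among the strongest pairs.

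Other lists of housekeeping genes ranged around the background of 37.3% or above it. Rab, Vps and V-ATPase genes, which act in vesicle traffic and acidification, had 26 of 51 paired genes at a peak (51.0%), while 6 of 45 (13.3%) of those in no pair had a summit. The strongest were Vps33B (rank 65), Vps36 with Liprin-beta (rank 306) and Vha55 with Snx3 (rank 421). Proteasome genes had 13 of 22 (59.1%), led by Rpn5 with Hat1 at rank 321, where the replicates gave 331, 312 and 348. The tRNA synthetases had 11 of 23 (47.8%), with SerRS at rank 272, IleRS at 528 and GluProRS at 552. For respiratory chain and ATP synthase genes it was 18 of 44 (40.9%), with ND-ASHI beside the fumarase gene Fum1 at rank 262. The lists of Mediator and general transcription factors (14 of 37, 37.8%), DNA replication (11 of 27, 40.7%), mitosis and cell cycle (9 of 25, 36.0%) and translation initiation factors (7 of 21, 33.3%) were near the background of paired genes. Their strongest members were MED30 with Rev1 (rank 151), the Mcm gene dpa with didum (305), Bub3 with Cap-D2 (889), a spindle checkpoint gene beside a condensin gene, and eIF1 with RpL28 (324). Of genes in no pair, 50% of 10 proteasome, 20% of 10 tRNA synthetase and 18.6% of 43 respiratory genes had a summit. For Mediator it was 26.7% of 15, for DNA replication 26.7% of 15, for mitosis 45.5% of 22 and for translation initiation 30.4% of 23. All of these shares were above the 13.7% of all coding genes in no pair. The peak of eIF3h/senju at rank 762 had no matching summit in replicate 3, with ranks 642 and 746 in replicates 1 and 2, and lay 248 bp inside eIF3h. A second summit of the pair, 6 bp inside eIF3h, had rank 841 and was present in all 3 replicates. At 9 peaks listed genes stood on both sides. Among them were Dref/RpL13 at rank 617, where the gene of DREF itself faces a ribosomal protein gene and the summit lay 30 bp from Dref, RPA1/Mcm2 at rank 2743, with replication genes on both sides, and Cdk1/mRpS7 at rank 3693. The Dref/RpL13 summit held both TATCGA and ACACTG within 50 bp.

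Genes tied to the known roles of Deadpan lay at occupied pairs in small numbers. The genes dpn, N, Delta, gro and Nct were in no opposite-strand pair, and Su(H) was in a pair without a peak. In the Notch list 6 of 11 paired genes were at a peak (54.5%), led by rumi, a glycosyltransferase that acts on Notch, at rank 405 (490, 409 and 395 in the replicates), and by aph-1, a subunit of gamma-secretase, at rank 442. The gamma-secretase genes Psn and pen-2 were at peaks as well. Of the Notch genes in no pair 4 of 10 (40%) had a summit, against 13.7% of all such genes. Su(dx), a ubiquitin ligase that acts on Notch, had rank 3201 with 2149, 2567 and 6816 in the replicates, outside the top entries of replicate 3. In the list for neuroblasts and asymmetric division 7 of 33 genes were in pairs, and 3 of them (42.9%) were at a peak: par-6 (rank 512), aPKC (rank 879) and brat (rank 1336). Of the sex determination list 4 of 8 paired genes (50%) were, with the splicing regulators fl(2)d at rank 902, vir at 1212 and snf at 2292. In these 3 lists the share of paired genes at a peak was above the 37.3% of all paired genes, on 7 to 11 paired genes each. None of the 9 proneural and none of the 8 Hox genes was in a pair.

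Genes of chromatin regulators were among the occupied pairs. Of the Polycomb and Trithorax list 8 of 17 paired genes lay at a peak (47.1%), with brm, the ATPase of the Brahma remodeler, at rank 360, Sfmbt at 767 and the histone methyltransferase gene E(z) at 1329. Of the genes of this list in no pair 10 of 13 (76.9%) also had a summit. Of the insulator list 6 of 9 paired genes did (66.7%), with Chro at rank 6, Cp190 at 297 and Dref at 617. Insulator genes in no pair had a summit at the same share, 4 of 6 (66.7%). At the other end, odorant and gustatory receptor genes had 1 of 16 paired genes at a peak, Gr63a, at rank 3793, where the summit lay 266 bp from Gr63a and 31 bp from Lamtor4. Cuticle protein genes had none of 14, and none of the 103 receptor and 108 cuticle protein genes in no pair had a summit. Heat shock genes had 2 of 8, Hsc70-5 at rank 677 and Hsc70-4 at rank 1098, both genes of constitutive chaperones.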

How the data were processed

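ChIP-seq peak lists of 3 biological replicates of 1 group were used, as the authors deposited them for dm6, without header lines. Peak calling against a control alignment was done per replicate and on the pool, and IDR gave the thresholded list, per the lists of files that the authors deposited. The aligner, peak caller and versions are not given in the sources used here. The authors' signal value (column 7) served for ranking inside each list. The deposited column 10 holds another unit, the summit offset in bp. The lists carry no read counts, so depth and counting error are unknown. Positions count from 1.

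Summits were assigned with the Ensembl annotation (release 115), using all transcript starts of coding genes on the main arms. Summits were matched within 150 bp among the top 5164 entries of each replicate. Words were searched on both strands within 50 bp of summits and in windows 400 bp away. Sequences came from the NCBI release 6 assembly. Differences between sets of regions were computed within each replicate and tested over 3 replicates by a two-sided exact sign-flip permutation test, whose smallest p is 0.25, so that no comparison could pass 0.05. The p-values concern these replicates only, and no test was made over peaks or genes. Genes and pairs were named by a rule: the 20 strongest peaks at pairs and up to 3 genes with the strongest peak in each of 20 gene lists. Examples of other pairs were picked after their values were seen. Members and lists were chosen with earlier results of these data known. Of the symbols entered, 7 matched under an updated symbol and 2 were left out as ambiguous. Alternatives changed distances, starts, annotation, list sizes and windows, and left out each replicate. Classing, matching and the test were checked on planted peaks. Python 3.11.15, numpy 2.4.6, pandas 2.3.3 and scipy 1.17.1 were used.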

Additional observations from a re-analysis of the deposited data

How the results depend on the processing

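The number of peaks at gene pairs was 606 with a limit of 250 bp to the starts and 590 in the stronger 50% of the list, both smaller by construction. It was 1280 with a limit of 1000 bp and 933 with 1 start per gene. Without replicate 1, 2 or 3 it was 816, 810 and 799, where a peak had to be found in both other replicates. Recovery in the replicates (88.5%) was 77.9% with summits matched within 50 bp, 91.4% within 300 bp, 98.7% with all entries, 58.1% with 50% as many top entries, 90.6% with the 250 bp limit and 89.8% for the stronger 50% of the list. The rank difference to one-directional peaks reversed with 50% as many top entries (23.2 ranks, against -381), and the cause was not tested. It was -5951 ranks with all entries and -733 with the 250 bp limit. The share of summits between the starts (81.9%) was 80.8% with the 250 bp limit, 77.2% with 1 start per gene and 83.5% for the stronger 50%. The share by rank, the occupancy of pairs and both TATCGA comparisons kept their direction under every alternative run, leaving out a replicate included. Windows of 100 bp gave TATCGA differences of 25.3 points to the flanks and 12.9 points to one-directional summits, both over 1.5 times the values at 50 bp. Without the mod(mdg4) entries, an alternative chosen after seeing the data, 1010 peaks remained and 36.7% of 2683 pairs were occupied. Without read counts, sampling error per peak cannot be given, and weak peaks near the threshold are the least certain.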
